A study of Mus musculus with 8 samples.

Results

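Genes that tell the subtypes of spiral ganglion neuron apart were followed in bulk RNA sequencing of the mouse auditory nerve at postnatal day 21. The 9 genes were chosen by name as subtype markers, and all 9 were in the table of 15035 genes and passed the filter on low values that left 14870 tested genes. Auditory nerves were microdissected from the cochlea, with both cochleas of a mouse pooled, so that 1 library stands for 1 mouse. Libraries 1 to 4 were wild type. Libraries 5 to 8 were labelled Mef2c heterozygote (+/-), Mef2c being the gene of a transcription factor. Strain, sex, litter, batch and the kind of mutation are not given in the labels, which name no further allele or treatment in either group.

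Spiral ganglion neurons carry sound information from the hair cells of the cochlea to the brainstem. Type I neurons contact inner hair cells and form nearly the whole nerve, and they fall into subtypes Ia, Ib and Ic, which differ in calcium-binding proteins, receptors, sound threshold and the side of the inner hair cell that they contact. The few type II neurons contact outer hair cells. Calb2 encodes calretinin, the marker of type Ia. Calb1 encodes calbindin, highest in type Ib. Lypd1, for a membrane-anchored modulator of nicotinic receptors, and Grm8, for a metabotropic glutamate receptor, mark type Ic. The transcription factor genes Pou4f1 and Runx1 are shared by types Ib and Ic. Pvalb encodes parvalbumin, a calcium buffer found broadly in type I neurons. Th, for tyrosine hydroxylase, and the transcription factor gene Gata3 mark type II neurons, and Gata3 is also active in developing spiral ganglion neurons, hair cells and supporting cells. In bulk tissue, fewer neurons of a subtype and less RNA per neuron cannot be told apart.

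The libraries held an estimated 13363262 to 21507345 counted reads. Their Pearson correlations across genes lay between 0.93 and 0.98, and wild-type library 1 stood lowest. Mef2c itself was higher in every library labelled heterozygote, at 583.3 to 735.1 normalized counts against 402.2 to 508.7 in wild type, opposite to the label. By a two-sided exact permutation test p was 0.0286, the smallest that 4 against 4 can give, and the limma-trend adjusted p was 0.186. The authors' deposited table gave Mef2c a ratio of 1.44 with an FDR of 0.0162. Which exons were targeted is not given, so the gene value may not reflect the allele, and each direction below is between libraries as labelled. Wild-type library 1 and heterozygote-labelled library 5 had 12.0 and 7.6 normalized counts of Xist, the RNA that coats the inactive X chromosome, against 5175 to 8615 in the other libraries. Pan-neuronal genes marked the tissue as neuronal: the summed level of 15 such genes, among them Snap25 and the neurofilament genes, ran from 181187 to 248224 in wild type and from 199667 to 234025 in the libraries labelled heterozygote.

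Positions are on GRCm38 (GENCODE M21). Calb2 lies on the minus strand at chr8:110137502-110168210, with 11 exons in its longest transcript. Calb1 lies on the plus strand at chr4:15881264-15908064, with 11 exons in its longest transcript. Pou4f1 lies on the minus strand at chr14:104461676-104467999, with 3 exons in its longest transcript. Runx1 lies on the minus strand at chr16:92601466-92826149, with 8 exons in its longest transcript. Lypd1 lies on the minus strand at chr1:125867622-125913101, with 3 exons in its longest transcript. Grm8 lies on the minus strand at chr6:27275119-28135178, with 11 exons in its longest transcript. Pvalb lies on the minus strand at chr15:78191114-78206400, with 4 exons in its longest transcript. Th lies on the minus strand at chr7:142892752-142931128, with 12 exons in its longest transcript. Gata3 lies on the minus strand at chr2:9857078-9890034, with 6 exons in its longest transcript. Reads were counted per gene, so the values are not resolved to exons, introns or untranslated regions.

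Of the stretches upstream of the start, only those that held a searched motif are shown. For 7 of the 9 members, RefSeq (GRCm38.p6) gave 13 starts, and the 250 bases before each were searched on both strands for the MEF2 motif, TGTGGT (bound by RUNX factors) and GATAAG (bound by GATA factors). These motifs do not overlap one another in the windows shown. The MEF2 motif was found in 1 of the 13 windows, at the outer start of Pvalb, from 180 to 171 bases upstream, and in 2.92% of 32851 such windows of all genes. TGTGGT was found in 1 of the 13 windows, on the reverse strand of Lypd1 from 51 to 46 bases upstream, and in 14.1% of all windows. GATAAG was found in 0 of the 13 windows and in 6.55% of all. A match describes the letters only. Capitals mark the match.
Pvalb, chr15:78206401-78206650, minus strand: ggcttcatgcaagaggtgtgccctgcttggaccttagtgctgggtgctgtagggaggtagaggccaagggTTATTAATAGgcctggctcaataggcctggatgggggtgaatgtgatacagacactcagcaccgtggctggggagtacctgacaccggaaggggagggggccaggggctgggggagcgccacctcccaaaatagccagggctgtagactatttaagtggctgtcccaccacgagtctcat
Lypd1, chr1:125912215-125912464, minus strand: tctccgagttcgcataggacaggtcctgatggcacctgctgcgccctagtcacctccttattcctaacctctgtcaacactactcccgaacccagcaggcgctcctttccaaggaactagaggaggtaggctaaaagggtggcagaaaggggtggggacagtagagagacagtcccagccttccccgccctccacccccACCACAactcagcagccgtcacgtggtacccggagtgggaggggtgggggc

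Levels of the markers were first compared with one another per kilobase of the longest GENCODE M21 transcript. The type Ia marker Calb2 was the highest, at 38853 ± 8049 normalized counts per kilobase in wild type (SD, n = 4), above 99.95% of tested genes with a known length. Pvalb followed at 14365 ± 3058 (SD, n = 4), and the type Ic marker Lypd1 at 1364 ± 343 (SD, n = 4). These 3 were apart from each other in all 8 libraries. Gata3, at 415.0 ± 70.8, and Calb1, at 330.0 ± 165.5, came next and overlapped in both genotypes (SD, n = 4). Calb1 stood above Pou4f1 (115.8 ± 23.8, SD, n = 4) in all 8 libraries. Th (86.2 ± 18.9), Runx1 (85.9 ± 36.2) and Grm8 (47.4 ± 18.3) were lowest, and in wild type each of them overlapped its neighbour in the order (SD, n = 4). Among labelled heterozygotes the mean of Runx1 was above that of Th, at 110.5 ± 27.6 against 61.8 ± 24.2 normalized counts per kilobase (SD, n = 4). This pair overlapped there as well. Within single libraries, Th was above Runx1 only in wild-type library 1. The markers of type Ic thus spanned more than an order of magnitude, with Lypd1 far above Grm8.

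**Figure D1:**
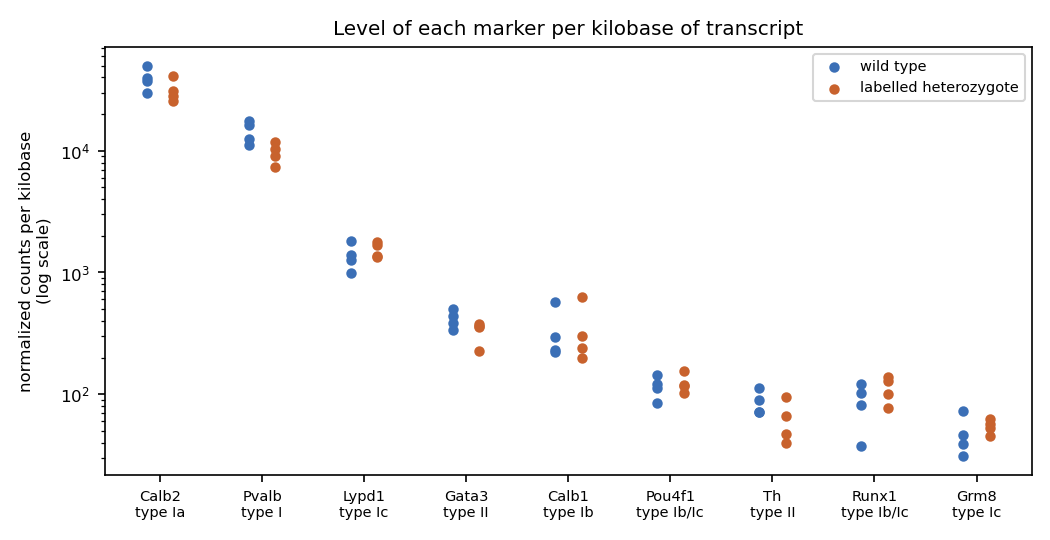
Normalized counts per kilobase of the longest transcript (y axis, log scale) for 9 subtype markers (x axis), with 1 point per library, 4 per genotype. Calb2, Pvalb and Lypd1 are apart from each other and from the rest, whereas Th, Runx1 and Grm8 overlap in wild type.

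The genotypes were then compared gene by gene. None of the 9 markers passed a limma-trend adjusted p of 0.05 (1 passed unadjusted), which 0.0807% of all tested genes did (0.00672% higher and 0.0740% lower), and 0 of the 9 passed in the authors' deposited table, by an FDR under 0.05, against 1.61% of its genes. At an unadjusted limma-trend p under 0.05 there was 1 marker, Pvalb, lower in the libraries labelled heterozygote, against 7.34% of tested genes lower and 14.1% in either direction. The genotypes overlapped in all 9 markers, whereas 7.26% of tested genes did not overlap (3.40% higher and 3.86% lower). The log2 fold change was above 0 in 5 markers and below 0 in 4, with a median of 0.01, next to 0.02 over all tested genes. With limma-voom on estimated reads 0 of the 9 passed as well. On the log2 scale the 95% interval was narrowest for Lypd1, a fold of 0.887 to 1.48, and widest for Calb1, a fold of 0.589 to 1.72.

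**Figure D2:**
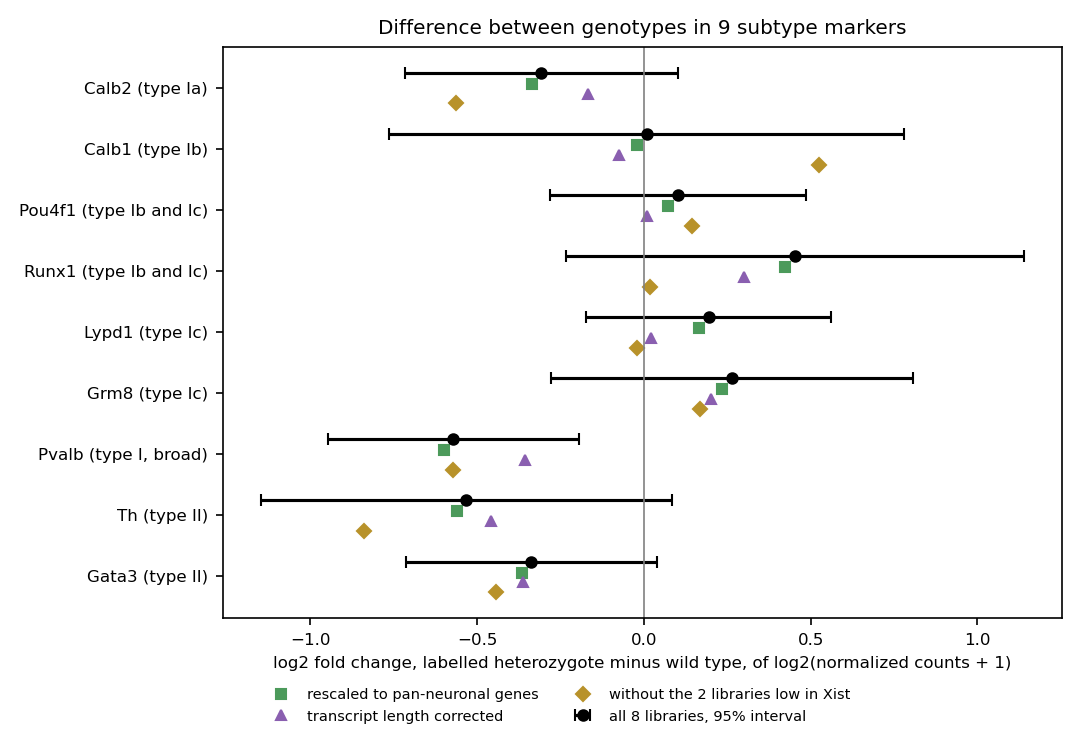
Log2 fold change of each marker, heterozygote-labelled minus wild type (x axis), with the 95% interval of limma-trend over all 8 libraries and the point estimates under 3 other settings. Only the interval of Pvalb lies wholly below 0, and that of Calb1 is the widest.

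Pvalb had the smallest p of the 9. It had 17180.3, 12249, 10828 and 15882 normalized counts in wild type and 11613.5, 10043, 8879.9 and 7167 in the libraries labelled heterozygote, in the order of their replicate numbers. 3 of the 4 libraries labelled heterozygote lay below every wild-type library, and library 5 lay above wild-type library 3. The means were 14035 ± 2988 and 9426 ± 1877 (SD, n = 4 each), which is -0.57 on the log2 scale (standard error 0.17). The unadjusted limma-trend p was 0.00635 and the adjusted p 0.259, and a two-sided exact permutation test gave p = 0.0571. The authors' deposited table gave a ratio of 0.672 with an FDR of 0.0559. Pvalb has a short transcript, of 977 bases, and corrected for length its log2 difference was -0.36 (unadjusted limma-trend p 0.0103, adjusted 0.316). Its closest companions across the 8 libraries, among 13356 genes with a mean of at least 50 normalized counts, were Ndufb5, Ube2m and Psma7, with Pearson correlations of 0.997, 0.997 and 0.994 and transcripts of 1079, 1472 and 1157 bases against a median of 3154. Fast skeletal muscle also makes parvalbumin. Of 7 skeletal muscle genes only Mylpf, for a myosin light chain, was among the 15035 genes, at 2.2 to 25.4 normalized counts. The part of muscle in the Pvalb values was not tested. Rescaled to the pan-neuronal genes, the log2 fold change of Pvalb was -0.60.

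Calb2, the type Ia marker, had 42537, 56399.8, 53019.5 and 70436 normalized counts in wild type and 58465, 36902, 44310.4 and 40001 in the libraries labelled heterozygote. Library 5 lay within the wild-type range, and library 7 above wild-type library 1. The log2 fold change was -0.31 (95% interval -0.72 to 0.10, unadjusted limma-trend p 0.128, adjusted 0.463). Corrected for length it was -0.17. Wild-type library 1 and library 5, the pair low in Xist, were the lowest and the highest of their genotypes. Leaving them out could therefore only widen the difference. Without them, 13.5% of tested genes had an unadjusted limma-trend p under 0.05. For Calb2 the log2 fold change was then -0.56 (unadjusted limma-trend p 0.00342, adjusted 0.213). With low Xist as a covariate over all 8 libraries it was -0.31 (unadjusted p 0.146), and without wild-type library 4 it was -0.19 (unadjusted p 0.358).

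Calb1, the type Ib marker, varied more within genotypes than between them. Wild-type library 1 had 2423 normalized counts and heterozygote-labelled library 6 had 2660.1, against 832.0 to 1261 in the other 6 libraries. The means were 1393 ± 699 and 1440 ± 832 (SD, n = 4 each), with a log2 fold change of 0.01 (standard error 0.35, unadjusted limma-trend p 0.981, adjusted 0.993). Its sign turned with single libraries: the log2 fold change was -0.34 without library 6, 0.31 without wild-type library 1, and -0.13, -0.01 and -0.14 without wild-type libraries 2, 3 and 4. Lrrc52, another type Ib gene, was lowest in the same libraries in which Calb1 was highest, at 7.8 and 6.1 normalized counts against 51.3 to 91.2 elsewhere. Lrrc52 was singled out after its values were seen. The genes closest to Calb1 were Abca4, Marchf3 and Ly6a, at Pearson correlations of 0.97, 0.96 and 0.96. For 8 genes of cochlear supporting and lateral wall cells the summed level was 153110, 184952, 169800 and 150426 in wild type and 187689, 156124, 193594 and 187479 among labelled heterozygotes, so library 6 was the lowest of its genotype and wild-type library 1 the second lowest. Coch alone had 100953 to 141874 normalized counts. Within the list the members differed: in library 6 Coch, Otog, Otogl, Tecta and Emilin2 were the lowest of their genotype, and the connexin genes Gjb2 and Gjb6 the highest. At an unadjusted limma-trend p under 0.05, 2 were higher among labelled heterozygotes (against 6.72% of all tested genes) and 1 lower (against 7.34%). These were Tecta (log2 fold change 2.91, adjusted p 0.0632), Otog (1.07, adjusted 0.112) and Emilin2 (-1.01, adjusted 0.329). None of the 8 was at 0, and their part in the Calb1 values was not tested.

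**Figure D3:**
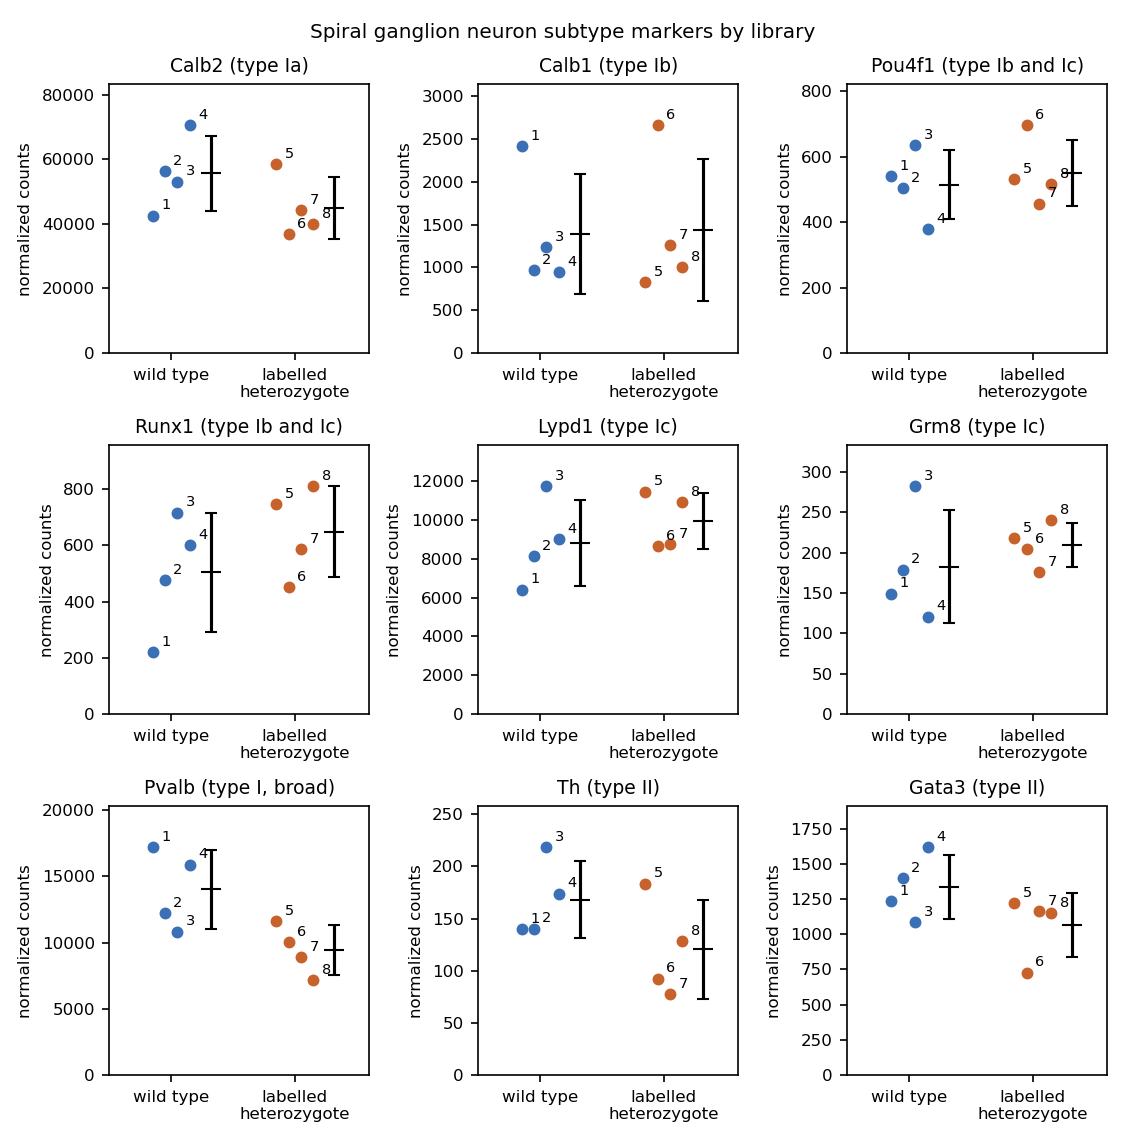
Normalized counts (y axis) of the 9 markers in each library, with wild type at left and labelled heterozygote at right. Numbers are replicates and bars are the mean and SD of 4 libraries. Pvalb is lower in libraries 6 to 8 than in all 4 of the wild type, and Calb1 stands out in libraries 1 and 6.

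The markers of types Ib and Ic followed. Lypd1 had 6410.3, 8128, 11718 and 9009 normalized counts in wild type and 11458, 8634, 8743 and 10895 in the libraries labelled heterozygote, so that the genotypes overlapped. Its log2 fold change was 0.19 (95% interval -0.17 to 0.56, unadjusted limma-trend p 0.271, adjusted 0.600). It was 0.34 without wild-type library 3 (unadjusted p 0.0328, adjusted 0.179) and 0.05 without wild-type library 1. Without the pair low in Xist it was -0.02. Runx1 had 220.6, 477.1, 715.9 and 600.3 normalized counts in wild type and 746.2, 450.5, 585.2 and 809.2 in the libraries labelled heterozygote. Wild-type library 1 was the lowest in both genes. The log2 fold change of Runx1 was 0.45 (95% interval -0.23 to 1.14, unadjusted limma-trend p 0.176, adjusted 0.518), and 0.10 without wild-type library 1. Runx1 is also a gene of blood cells. The summed level of 4 neutrophil genes ran from 106.3 to 2346 normalized counts in wild type and from 649.1 to 6030 in the libraries labelled heterozygote, 3 of the 4 were higher without overlap, against 3.40% of all tested genes, and their part in the Runx1 values was not tested. Of 7 macrophage genes 0 passed, with sums of 3069 to 4822 and 2792 to 3749. Wild-type library 1, lowest in Runx1, had the highest neutrophil sum of its genotype, mostly from Ltf, at 2176 normalized counts. There S100a8, S100a9 and Ngp had 53.2, 48.0 and 68.8, and S100a9 was higher in wild-type library 3, at 54.1.

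Grm8 had 149.2, 179.0, 282.3 and 120.8 normalized counts in wild type and 218.3, 204.8, 176.2 and 241.0 in the libraries labelled heterozygote, all within the wild-type range. Its log2 fold change was 0.26 (95% interval -0.28 to 0.81, unadjusted limma-trend p 0.311, adjusted 0.633). It was 0.50 without wild-type library 3 (unadjusted p 0.0400, adjusted 0.196) and 0.09 without wild-type library 4. Pou4f1 had 541.2, 503.1, 635.2 and 379.3 normalized counts in wild type and 532.2, 695.3, 456.1 and 516.6 in the libraries labelled heterozygote. Its log2 fold change was 0.10 (95% interval -0.28 to 0.49, unadjusted limma-trend p 0.572, adjusted 0.806). Leaving out wild-type library 3 gave 0.21, leaving out library 7 gave 0.19, leaving out wild-type library 4 gave -0.04, and leaving out library 6 gave -0.02. The gene closest to Pou4f1 was Syvn1 (Pearson correlation 0.98), followed by Syt1, for a synaptic vesicle calcium sensor (0.96).

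The type II markers both had lower means in the libraries labelled heterozygote, and neither passed. Th had 140.2, 140.4, 218.2 and 173.9 normalized counts in wild type and 183.6, 92.4, 77.3 and 128.5 in the libraries labelled heterozygote. Library 5 lay above 3 of the 4 wild-type libraries and the other 3 lay below all of them. The log2 fold change of Th was -0.53 (95% interval -1.15 to 0.08, unadjusted limma-trend p 0.0842, adjusted 0.401), and -0.84 without the pair low in Xist (unadjusted p 0.00972, adjusted 0.247). Without library 7 it was -0.35. Th is also a gene of sympathetic fibres. Of their 4 listed genes only Npy was among the 15035 genes, at 11.3 to 39.1 normalized counts. The part of such fibres in the Th values was not tested. Gata3 had 1234, 1399, 1087 and 1617 normalized counts in wild type and 1222, 727.5, 1166 and 1149.5 in the libraries labelled heterozygote. Library 6 was the lowest of all 8, and the other 3 overlapped wild type. The log2 fold change of Gata3 was -0.34 (95% interval -0.71 to 0.04, unadjusted limma-trend p 0.0747, adjusted 0.390), and -0.16 without library 6.

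Of the 13356 genes compared, the one closest to Gata3 across the 8 libraries was Ocm, at a Pearson correlation of 0.99. Gm5737 was next, also at 0.99. Ocm encodes oncomodulin, the parvalbumin of outer hair cells. It had 1287, 1812, 826.8 and 3180.3 normalized counts in wild type and 1114.5, 201.3, 867.9 and 723.8 in the libraries labelled heterozygote. Library 6 was lowest and wild-type library 4 highest in both genes. The other 8 hair cell genes, without Ocm, had summed levels of 2963, 3796, 4046 and 4728 in wild type and 5108.5, 2942, 5180.2 and 6216 among labelled heterozygotes. Library 6 was again the lowest, close to wild-type library 1, and wild-type library 4 was below libraries 5, 7 and 8. Otof had the most counts of them, 1254 to 3018, and the members differed. Slc26a5, Strc and Slc17a8 were lowest in library 6 and highest in wild-type library 4, as were Gata3 and Ocm. Otof, Myo7a, Cabp2, Loxhd1 and Pou4f3 were each highest in a library labelled heterozygote. None of the 9 hair cell genes was at 0. At an unadjusted limma-trend p under 0.05, 2 of these 9 hair cell genes were higher (Otof and Cabp2, log2 fold changes 0.54 and 0.67), against 6.72% of all tested genes, and 1 was lower (Ocm, -1.36), against 7.34%. Calb2 was also lowest in library 6 and highest in wild-type library 4, at 36902 and 70436 normalized counts. The part of hair cells in the Gata3 and Calb2 values was not tested.

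**Figure D4:**
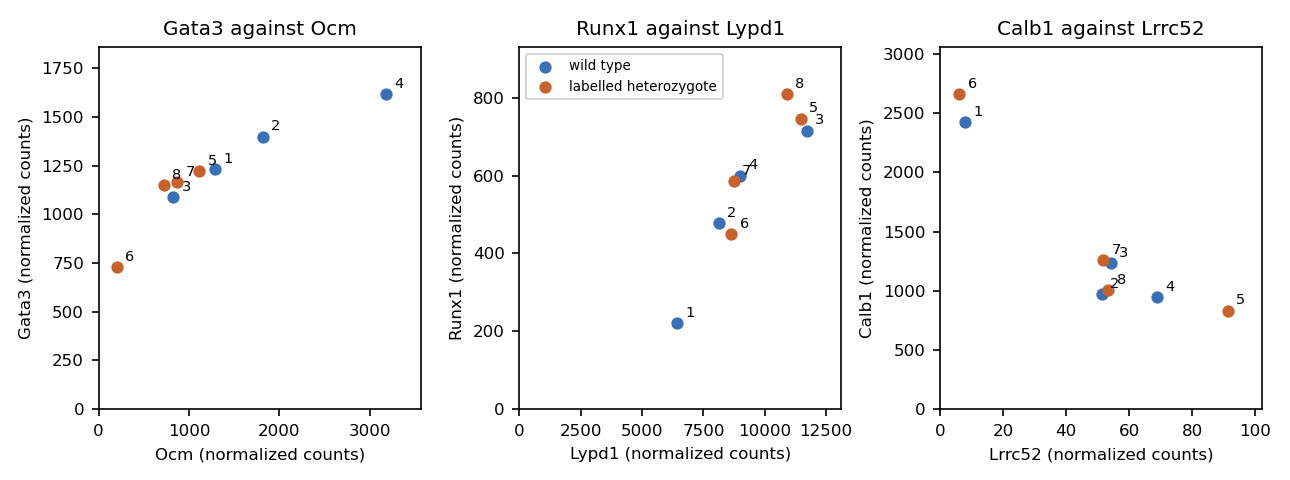
Normalized counts of 3 pairs of genes, with 1 point per library and replicate numbers beside the points. Gata3 and Ocm are both lowest in library 6 and highest in library 4, Runx1 and Lypd1 are both lowest in library 1, and Calb1 is high in the 2 libraries where Lrrc52 is below 10.

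All 36 pairs of markers were compared over the 8 libraries, with exact permutation p-values. Runx1 and Lypd1 were the only pair with a Benjamini-Hochberg adjusted p under 0.05, at a Pearson r of 0.93 (exact permutation p 0.00117, adjusted 0.0420). Spearman's rho was 0.88 (exact permutation p 0.00724, adjusted 0.261), so the pair did not pass by ranks. Without the 2 libraries farthest from the median of Runx1 r was 0.89, without wild-type library 1 it was 0.89, among the 6 libraries with Xist it was 0.87, and after correction for transcript length it was 0.83. The 2 libraries low in Xist are too few for a value of their own. The transcripts of Runx1 and Lypd1 are long, at 5861 and 6464 bases, as are those of Camta1, Efr3a and Zdhhc21, the genes closest to Lypd1, at 8533, 5215 and 8763 bases. By Pearson r, 6 pairs had an unadjusted exact permutation p under 0.05. Beside Runx1 and Lypd1 they were Pou4f1 and Gata3 (r -0.85), Calb2 and Gata3 (0.77), and Calb1 and Runx1 (-0.74). The remaining pairs were of Grm8, with Lypd1 (0.70) and with Pou4f1 (0.70). Calb1 and Calb2, markers of types Ib and Ia, were not among them, at an r of -0.70 (exact permutation p 0.0557, adjusted 0.266). Their rho was -0.83 (exact permutation p 0.0154, adjusted 0.277), and r was -0.48 without the 2 libraries farthest from the median of Calb1.

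Ratios to Calb2 set other markers against it within a library, without correction for transcript length. The transcript of Calb2 has 1431 bases, against 6464 for Lypd1 and 5861 for Runx1. Corrected for length, the log2 fold changes of Calb2, Lypd1 and Runx1 were -0.17, 0.02 and 0.30, against -0.31, 0.19 and 0.45 uncorrected. The log2 ratio of Lypd1 to Calb2 was -2.67 ± 0.34 for wild type, against -2.17 ± 0.23 for labelled heterozygotes (SD, n = 4 each), and the genotypes overlapped through wild-type library 3, at -2.18. That of Runx1 to Calb2 was -6.89 ± 0.56 and -6.13 ± 0.34 (SD, n = 4 each), again with wild-type library 3, at -6.21, among the libraries labelled heterozygote. For Gata3 to Calb2 the means were -5.37 ± 0.21 and -5.40 ± 0.26 (SD, n = 4 each), a difference of -0.03. The genotypes overlapped in all 9 ratios computed.

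The related genes were read from the same fit as counts at an unadjusted limma-trend p under 0.05, against 6.72% of tested genes higher and 7.34% lower. Of 15 pan-neuronal genes and of 6 genes of spiral ganglion neuron identity, 0 passed in either direction, with median log2 fold changes of 0.03 and 0.10. Among 4 other markers of types Ia and Ib, 0 passed, and Pcdh20 and Rxrg had log2 fold changes of 0.21 and -0.13. Of 5 other type II markers 0 passed. Their log2 fold changes were above 0 in 2 and below 0 in 3, with a median of -0.19, and Etv4 had -0.35. Tac1, for the precursor of substance P, had a log2 fold change of 1.03, but its wild-type libraries ran from 7.1 to 118.2 normalized counts. Of 13 other cytosolic calcium-binding proteins of the EF-hand family, to which calretinin, calbindin and parvalbumin belong, 1 was higher: Necab1, with 56.3 to 108.3 normalized counts in wild type and 115.3 to 199.1 in the libraries labelled heterozygote (log2 fold change 0.83, unadjusted limma-trend p 0.00974, adjusted 0.266). Gata2 was lower among 4 other GATA factors and cofactors (log2 fold change -0.25, unadjusted limma-trend p 0.0323, adjusted 0.322). Qdpr, which recycles the cofactor of tyrosine hydroxylase, was lower among 7 genes of catecholamine synthesis and transport (log2 fold change -0.57, unadjusted limma-trend p 0.00456, adjusted 0.238). Of 4 other RUNX and cofactor genes and 5 relatives of Lypd1, 0 passed. The log2 fold changes of the relatives were above 0 in 3 and below 0 in 2. Among them Lypd6b did not overlap, at 236.2 to 374.9 normalized counts in wild type and 381.3 to 447.6 among labelled heterozygotes. Its log2 fold change was 0.34 (unadjusted limma-trend p 0.0605), and 3.40% of all tested genes were higher without overlap.

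Genes of central glia also differed between genotypes. Of 7 oligodendrocyte genes 5 did not overlap, 3 of them past the adjusted threshold, all lower in the libraries labelled heterozygote, against 3.86% and 0.0740% of all tested genes in that direction. Their summed level was 44191 to 51084 in wild type and 25629 to 31242 there. For 5 astrocyte genes the sums were 20365 to 29927 and 10938 to 18361, with 3 genes not overlapping and lower, against the same 3.86%. No gene of either list was at 0. The share of central nerve in the dissection was not measured, and its part in the marker values was not tested. Of 7 cerebellar and inhibitory brainstem genes, only Car8 and Gad1 were among the 15035 genes. Gad1 was higher in every library labelled heterozygote, at 135.9 to 265.3 against 36.3 to 132.4 normalized counts (log2 fold change 1.26, unadjusted limma-trend p 0.00884, adjusted 0.266). Of 5 T cell and innate lymphoid genes, another source of Gata3, only Cd4 was among the 15035 genes, at no more than 57.5 normalized counts. The part of these cells in the Gata3 values was not tested.

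The 2 libraries low in Xist are 1 per genotype, which gives no comparison between them. Among the other 6 libraries, 4 markers had an unadjusted limma-trend p under 0.05, all lower in the libraries labelled heterozygote, against 13.5% of tested genes in either direction. With low Xist as a covariate over all 8 libraries there was 1, Pvalb, against 16.5%. Besides Calb2 and Th, the 4 among the 6 libraries were Pvalb, with a log2 fold change of -0.57 (adjusted 0.213), and Gata3, with -0.44 (adjusted 0.359). None passed the adjusted threshold. With single libraries left out, the count was 4 without wild-type library 3 (23.0% of tested genes), where Pvalb and Gata3 were lower and Lypd1 and Grm8 higher, 3 without library 5 (13.2%) and 2 without wild-type library 1 (11.9%). Whether sex differs between these libraries is not given in the labels.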

How the data were processed

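The signal values the authors deposited are normalized counts per library, which the values show to be read counts over a scaling factor. The submitters' processing notes list Partek, STAR and DESeq2 and build mm10, without roles. Directional poly(A) libraries were made, per the labels' protocols, and whether counting used the strand is not given in the sources used here. Exons of Lypd1, Runx1 and Gata3 overlap genes on the opposite strand (Gpr39 by 1202 bases, Gm26626 by 106 and Gm13256 by 155), so reads could be shared. Per the file headers, the authors' comparison gives a ratio, a log2 ratio, a p-value and an FDR. A signed fold score, also deposited, was left out.

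What 1 read is worth was estimated from the steps between low values, and 89.3% to 92.3% of those came out whole (tolerance 0.06), too few for a count model. 3 reads correspond to 2.37 to 3.89 normalized counts. Genes reaching 10 normalized counts in 4 or more libraries entered limma-trend on log2(value + 1), without covariates, with Benjamini-Hochberg adjustment over all tested genes and a threshold of 0.05. Fold changes are on that scale and understate low genes. Whether mice of a group share a litter is not stated. Markers and gene lists were chosen with earlier results of these data known. A related gene list is not reported here. Beside the markers, text names listed genes with an unadjusted p under 0.05, otherwise the 2 largest changes, and up to 3 genes most correlated with a marker, each where given. Some other listed genes are named for their values by library. On simulated data for 14870 genes, 91.0% of 2-fold and 100.0% of 4-fold changes were recovered among 200 changed genes, and 9 unchanged genes were called. The simulation gave all genes the same dispersion. In the data the log2 SD of a marker within a genotype ran from 0.19 (Grm8, labelled heterozygotes) to 0.75 (Runx1, wild type). The simulated shares therefore do not give the power for the markers. Alternatives were other pseudocounts (0.1 and 10), filters, scalings, low Xist (under 100) as a covariate or left out, each library left out, and, added after seeing the data, a loess length correction (span 0.5) and limma-voom. Tools were Python 3.11.15, pandas 2.3.3, matplotlib 3.10.9, numpy 2.4.6, limma 3.58.1 and R 4.3.3.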

Additional observations from a re-analysis of the deposited data

Results flagged for a closer look

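Each marker was checked within each genotype for a lone distant library, 18 checks in all, of which chance alone marks about 0.9. There was 1. For Gata3 among labelled heterozygotes, the gap to the nearest library over the whole range was 0.853, above Dixon's 95% critical value for 4 samples, because library 6 had 727.5 normalized counts against 1149.5 to 1222 in the other 3. The same library had the fewest normalized counts of Ocm, 201.3, and of Emilin2, 606.4, among all 8.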

How the results depend on the processing

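None of the 9 markers passed an adjusted p of 0.05 in any of the 19 alternatives. The count of all genes that passed, 12, was 7 with quantile normalization, 0 after rescaling to the pan-neuronal genes (1324 at an unadjusted limma-trend p under 0.05) and 30 with the length correction, and it ran from 0 (when wild-type library 2, wild-type library 4 or library 8 was dropped, with 1919, 1451 and 1180 at an unadjusted p under 0.05) to 221 (without wild-type library 3) with single libraries left out. Markers with an unadjusted p under 0.05 numbered 4 without the pair low in Xist, and 1 to 4 with single libraries left out. They numbered 4 without wild-type library 3, where 23.0% of all genes had such a p, 3 without heterozygote-labelled library 5 and 2 without wild-type library 1. The log2 fold change of Calb1 was -0.0076 with upper-quartile rescaling, -0.020 after pan-neuronal rescaling and -0.073 with the length correction, and ran from -0.34 to 0.31 with single libraries left out. That of Pou4f1 ran from -0.036 to 0.21. That of Lypd1 was -0.020 without the pair low in Xist. Those of the other 6 markers kept their sign throughout. For Pvalb the adjusted p ran from 0.0571 (without wild-type library 3) to 0.618 (without heterozygote-labelled library 8). The cause of these shifts was not tested. No paired analysis was possible because the genotypes share no replicate numbers.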
